A study of Homo sapiens with 12 samples.

Results

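The hnRNP and SR splicing factors were described in 2 kinds of human neuron grown from stem cells. The members were picked by symbol, without a measured value in the rule: HNRNP followed by letters or digits and SRSF followed by digits, without pseudogenes and without the hyphenated readthrough HNRNPUL2-BSCL2, together with TRA2A, TRA2B, the PTBP, RBFOX and NOVA families, CELF1 to CELF6 and MBNL1 to MBNL3. Of the 16093 genes listed for both kinds of neuron, 52 identifiers under 51 symbols met this rule. They comprised 21 HNRNP genes, 12 SRSF genes and 18 of the 19 symbols listed by name, and RBFOX2 was listed under 2 identifiers. MBNL3 and a 2nd identifier of HNRNPH1 were listed for 1 kind of neuron only.

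The first kind of neuron, iMNs, was made from an induced pluripotent stem cell line with small molecules and sorted for a red reporter driven by the HB9 promoter, and is labelled motor neuron. The other kind, i3Ns, came from H1 embryonic stem cells that carry inducible NGN2, and is labelled cortical neuron. In each, lentiviral shRNA against SMN1 and SMN2 (SMN-KD) or a scrambled shRNA (SCR) was given, with 3 libraries per group and 12 libraries of total RNA depleted of ribosomal RNA in all. Each kind of neuron came from 1 stem cell line, and nothing in the labels says whether the 3 libraries of a group were separate cultures.

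The value used for each gene was the authors' mean normalized count over the 6 libraries of a neuron type, SCR and SMN-KD together. These means have no error and no n of their own, so every comparison here is a description without a test. The SMN-KD against SCR comparison was not analysed here. The 2 tables were normalized separately. A gene's mean was therefore divided by the sum of its table, which was 43320593 in iMNs and 45043437 in i3Ns, and the log2 ratio of these shares, i3Ns over iMNs, is called the log2 ratio throughout. Levels of different genes were set side by side per transcript length, in parts per 1000000 (ppm) of the table, and the length is that of the MANE Select transcript, the reference transcript of a gene, unless another is named. Neuron type, stem cell line and differentiation protocol cannot be told apart, and in bulk RNA fewer cells of a type and less RNA per cell cannot be told apart either. Because SCR and SMN-KD are averaged, a response to SMN-KD that differed between the neurons would also enter the log2 ratio. Its part was not tested. The depth of single libraries is unknown.

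Splicing factors bind short motifs in pre-mRNA and decide which exons are kept. SR proteins carry an arginine- and serine-rich domain and mostly favour inclusion of the exon they bind, whereas many hnRNPs coat nascent RNA and favour skipping. Both groups act on the SMN genes themselves: SRSF1 and TRA2B favour, and hnRNP A1 disfavours, the exon that most SMN2 transcripts lack. The PTBP, RBFOX, NOVA, CELF and MBNL families are tissue-dependent regulators, and the replacement of PTBP1 by PTBP2 is a known step of neuronal differentiation.

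Many splicing factors limit their own amount through an exon whose inclusion or skipping brings a premature stop codon, so that the transcript is destroyed by nonsense-mediated decay (NMD). GENCODE release 44 lists an NMD transcript for 37 of the 51 positioned members (72.5%), against 45.9% of the 14503 coding genes in both tables. All 14 SRSF and TRA2 genes have one (100%), as do 14 of the 21 HNRNP genes (66.7%) and 9 of the 16 others (56.3%). HNRNPA2B1 has 35 NMD transcripts, the highest number among the members. The members also have more annotated transcripts, with a median of 13 against 8, so that the 2 shares are not matched for the number of transcripts. A retained-intron transcript is annotated for 74.5% of the members and for 57.2% of the coding genes. These are properties of the annotation. The use of such exons in these libraries was not analysed here.

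Exons of an NMD transcript that lie between neighbouring exons of the MANE Select transcript were read from the GENCODE sequences. There were 24 such exons in 16 members, and 20 of them, in 14 members, bring an in-frame stop codon. Overlapping forms of an exon were counted separately, as in SRSF4, SRSF7 and TRA2A. SRSF and TRA2 genes made up 8 of the 16, and the rest of the 14 SRSF and TRA2 genes have NMD transcripts without such an exon. The start of these exons is shown for 6 of those genes, because such exons are the ones the annotation lists for the SR family. Each runs 5′ to 3′ from the first base of the exon on GRCh38 to its first in-frame stop codon, which is in capitals, and the exon's full position is given before it.
TRA2A, 301-base exon, chr7:23522132-23522432, minus strand: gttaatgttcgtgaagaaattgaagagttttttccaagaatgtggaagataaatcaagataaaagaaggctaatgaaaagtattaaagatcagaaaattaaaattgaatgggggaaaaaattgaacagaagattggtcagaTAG
TRA2B, 276-base exon, chr3:185931577-185931852, minus strand: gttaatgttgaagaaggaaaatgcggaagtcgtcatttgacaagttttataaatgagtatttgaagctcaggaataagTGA
SRSF3, 456-base exon, chr6:36599821-36600276, plus strand: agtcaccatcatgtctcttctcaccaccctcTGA
SRSF4, 228-base exon, chr1:29159864-29160091, minus strand: atttaacaaagacctcaatgtttTAA
SRSF6, 268-base exon, chr20:43459153-43459420, plus strand: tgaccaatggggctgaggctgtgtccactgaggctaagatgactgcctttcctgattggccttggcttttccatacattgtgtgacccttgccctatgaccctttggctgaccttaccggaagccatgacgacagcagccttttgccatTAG
SRSF7, 276-base exon, chr2:38748898-38749173, minus strand: ggcagaaaatttgagacggTGA

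The stop codon starts at base 142 of the TRA2A exon and at base 79 of the TRA2B exon. In SRSF3, SRSF4 and SRSF7 it starts at bases 32, 24 and 20, and in SRSF6 at base 150.

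The opposite arrangement, an NMD transcript that skips a coding exon, was found for 21 exons in 15 members, and 0 of these were SRSF or TRA2 genes. Skipping shifts the reading frame for 12 of the 21 exons. Whether skipping the others brings a stop codon was not examined. The exons of PTBP1 and PTBP2 are shown because these genes are compared most closely between the neurons. The skipped exon is in capitals, with 15 bases of each neighbouring exon in lower case.
PTBP1, chr19:807869-807902, plus strand: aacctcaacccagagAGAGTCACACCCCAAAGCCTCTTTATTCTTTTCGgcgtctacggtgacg
PTBP2, chr1:96806419-96806452, plus strand: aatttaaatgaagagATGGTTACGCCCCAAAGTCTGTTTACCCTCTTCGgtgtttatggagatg
Both exons have 34 bases, so that skipping shifts the reading frame, and 25 of the 34 positions are identical.

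The splicing factors were among the more abundant transcripts of both neurons. Per length, the median member stood at 98.6 ppm in iMNs and 128 ppm in i3Ns, where the median gene stood at 20.5 and 14.9 ppm. Of the 51 positioned members, 21 in iMNs and 32 in i3Ns lay in the top 10% of all genes. Among genes listed for both neurons, these counts were 20 and 27. Together the members held 0.824% of the summed mean normalized count in iMNs and 1.00% in i3Ns.

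With the MANE Select length, the order of levels was led by the same 2 genes in both neurons. HNRNPA1 ranked 1 at 380 ppm in iMNs and 521 ppm in i3Ns, and HNRNPK ranked 2 at 353 and 495 ppm. CELF5, HNRNPC and RBFOX2 followed in iMNs at 341, 300 and 294 ppm, whereas HNRNPH1 at 411 ppm, HNRNPAB at 347 ppm and HNRNPU at 325 ppm followed in i3Ns. RBFOX2 ranked 7 in i3Ns, at 315 ppm, but its levels per length leave out its 2nd identifier, which has no length. That identifier held 0.409% of the summed RBFOX2 mean in iMNs and 32.1% in i3Ns, so the place of RBFOX2 in i3Ns is uncertain. At the lower end, MBNL1 at 12.6 ppm and SRSF10 at 20.4 ppm were the 2 members below the median gene in iMNs. In i3Ns the members below it were RBFOX1 at 3.97 ppm, MBNL2 at 11.3 ppm and CELF6 at 13.2 ppm. The order rests on the length used: with the median length of a gene's coding transcripts HNRNPK stood at 233 ppm in iMNs, below RBFOX2 at 785 and NOVA1 at 495 ppm, and with the longest transcript it stood above HNRNPA1, at 415 against 410 ppm. CELF5 stood at 180.1 ppm in iMNs with the longest transcript and at 116 ppm with the median length. With no spread between libraries, neighbours in this order cannot be said to differ. Across the 51 members, the log2 levels per length of the 2 neurons had a Pearson r of 0.80 and a Spearman rho of 0.91, against 0.90 and 0.91 across 15306 genes. The points share each gene's length and annotation, and genes are not independent replicates.

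**Figure D1:**
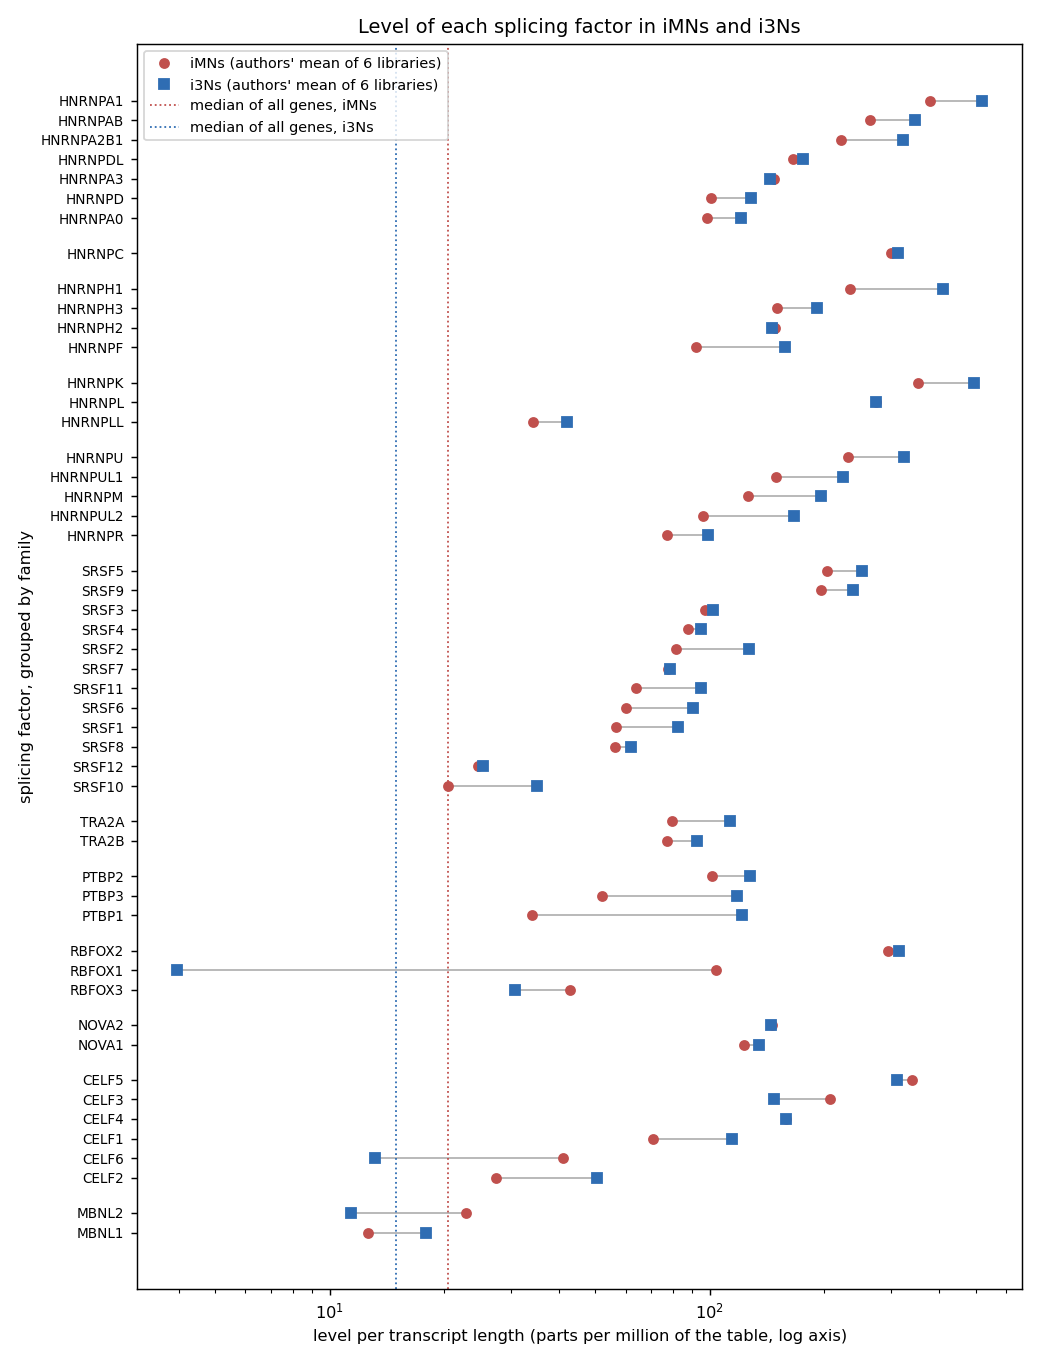
Level of 50 splicing factors per transcript length in iMNs (circles) and i3Ns (squares), in ppm of the table on a log axis, with 1 row per gene grouped by family. Each symbol is the authors' mean over 6 libraries, with no error available, and the dotted lines mark the median of all genes, at 20.5 ppm in iMNs and 14.9 ppm in i3Ns. Most members lie to the right of both lines, and the longest bar joins the 2 values of RBFOX1, 104 and 3.97 ppm. The row of RBFOX2 leaves out its 2nd identifier.

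Between the neurons, 46 of the 52 identifiers (88.5%) were within 2-fold of each other, as were 75.6% of all genes. A mean share at least 2-fold higher in i3Ns was found for 3 members (5.77%), against 10.2% of the 15907 genes compared, and at least 2-fold higher in iMNs for another 3, against 14.2%. The 3 higher in i3Ns were PTBP1, PTBP3 and the 2nd identifier of RBFOX2, whose read assignment is uncertain. Summed over both identifiers, RBFOX2 was within 2-fold. Large differences were thus no more frequent among the members than among genes at large, and these counts are no result about the family. At a fold of 1.5, 11 members were higher in i3Ns, against 19.9% of genes, and 3 were higher in iMNs, against 22.8%. At a fold of 3, 2 members lay on each side, against 5.01% of genes higher in i3Ns and 8.05% higher in iMNs. The 2 higher in i3Ns were PTBP1 and the 2nd identifier of RBFOX2. All 52 identifiers passed the filter on low values, which asked for a mean of 10 or more in either table. The median log2 ratio was 0.28 over the members and 0.02 over all genes, with quartiles of -0.00 and 0.52 over the members and of -0.52 and 0.46 over all genes. A higher share in i3Ns was found for 39 of the 52 (75%), against 51.4% of all genes.

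**Figure D2:**
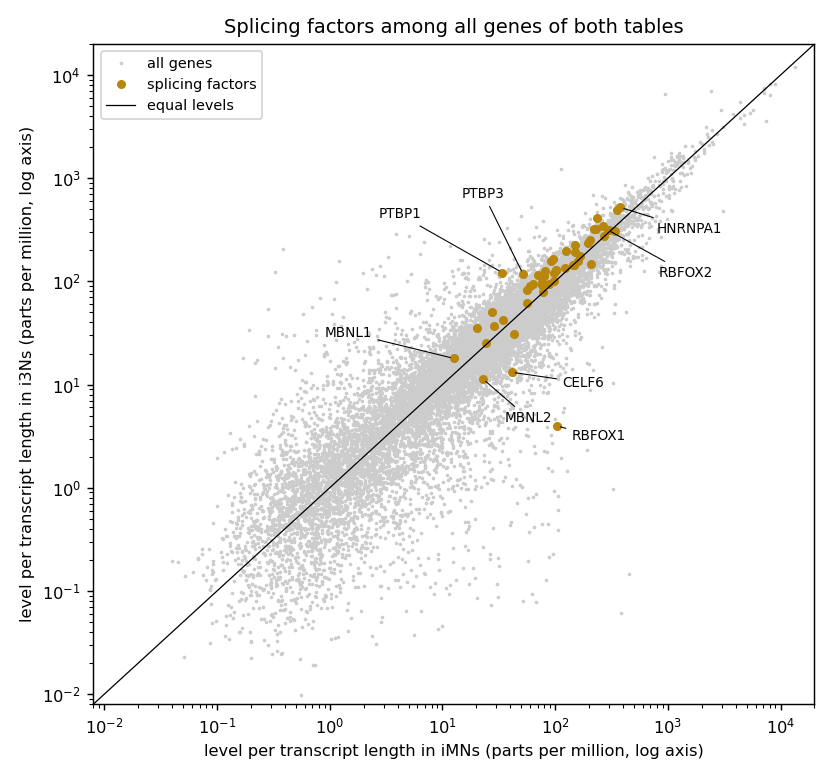
Level per transcript length in i3Ns against iMNs, in ppm on log axes, for all genes of both tables (grey) and the positioned splicing factors (gold). The line marks equal levels. Most splicing factors lie in the upper part of the cloud near the line, and RBFOX1 stands farthest below it, at 104 ppm in iMNs and 3.97 ppm in i3Ns.

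The markers of the labelled cell types were read in the same tables. Of 5 neuronal genes, 1 was at least 2-fold higher in iMNs, SNAP25, at a mean normalized count of 18426 in iMNs and 4847 in i3Ns, and the median log2 ratio of the list was -0.50. TUBB3 was at 58362 and 70054, MAP2 at 112758 and 82776, and SYP at 26533 and 17671. Of 7 motor neuron genes, the 4 transcription factor genes MNX1, ISL1, ISL2 and LHX3 were at least 2-fold higher in i3Ns than in iMNs, with MNX1, which encodes HB9, at 430 in iMNs and 2279 in i3Ns, and ISL1 at 1663 and 14299. SLC5A7, the choline transporter, was at 8460 in iMNs and 2472 in i3Ns, SLC18A3, the vesicular acetylcholine transporter, at 3115 and 1865, and CHAT at 533 and 527. The glutamate transporter genes SLC17A6 and SLC17A7 were at 593 and 50.1 in iMNs and at 11237 and 6490 in i3Ns, and the cortical gene TBR1 was at 10.2 in iMNs and 1801 in i3Ns. The motor neuron transcription factors thus went against the label of iMNs, and their higher values in i3Ns also went against the label of cortical neuron. Both transporters of cholinergic neurons went with the label of iMNs. The glutamatergic genes and TBR1 were higher in i3Ns, as labelled. GFAP, AQP4 and SOX10 were listed in neither table. The shRNA targets SMN1 and SMN2 appeared under 5 identifiers of near-identical copies, at means between 51.9 and 477 in iMNs and between 16.3 and 409 in i3Ns. As SCR and SMN-KD are averaged in these means, they do not show the knockdown.

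The PTBP family bind pyrimidine-rich tracts and mostly repress neuronal exons. PTBP1 (ENSG00000011304, chromosome 19, 797075 to 812327), the form of non-neuronal and progenitor cells, had a mean normalized count of 1519 in iMNs and 5433 in i3Ns, a log2 ratio of 1.78 or 3.44-fold. Of the 15907 genes, 650 (4.09%) were at least as far above iMNs. PTBP3 (chromosome 9, 112217716 to 112333664), a paralog of both, was at 5195 in iMNs and 11824 in i3Ns, 2.19-fold higher, and 8.49% of genes were at least as far above. PTBP2 (chromosome 1, 96721665 to 96823738), the neuronal form, was at 4685 and 5910, a log2 ratio of 0.28, close to the median member.

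Per length, PTBP2 was 2.98 times PTBP1 in iMNs and 1.05 times PTBP1 in i3Ns. PTBP2 thus made up 54.1% of the family's level in iMNs and 34.8% in i3Ns, PTBP1 18.2% and 33.1%, and PTBP3 27.7% and 32.1%. The whole family stood at 187 ppm in iMNs and 367 ppm in i3Ns. With the longest annotated transcript as length, PTBP2 held 28.6% and 15.7% and PTBP3 led the family in both neurons. The order within the family thus depends on the length used. The lower share of PTBP2 in i3Ns follows with any length, because its log2 ratio was the lowest of the 3 genes. Gene lists for other cells and states also had higher sums in i3Ns. The 3 proliferation genes summed to a mean normalized count of 213 in iMNs and 1082 in i3Ns, with MKI67 at 28.3 and 522, and 5 mesenchymal genes summed to 2889 and 7108, with 3 of the 5 at least 2-fold higher. Of 8 glial genes, 3 were listed for both neurons and all 3 were at least 2-fold higher in i3Ns. These were OLIG1 at 57.7 and 179, OLIG2 at 20.7 and 362, and MBP at 329 and 949. S100B was listed for iMNs only, at 29.8, ALDH1L1 for i3Ns only, at 3.64, and GFAP, AQP4 and SOX10 for neither. The sums over the list were 437 and 1494. In addition, of 3 pluripotency genes, LIN28A was at 215 and 4216, while POU5F1 and NANOG were listed for i3Ns only, at low means of 13.9 and 7.73. Their part in the PTBP1 and PTBP3 values was not tested.

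The RBFOX family bind a GCAUG motif next to many neuronal exons. RBFOX1 (chromosome 16, 5239802 to 7713340) had the largest difference of any positioned member, with a mean normalized count of 7047 in iMNs and 270 in i3Ns. Its log2 ratio was -4.76, or 27.2-fold higher in iMNs, and 129 of the 15907 genes (0.811%) were at least as far on that side. RBFOX3, which encodes the neuronal nuclear antigen NeuN, was at 1886 in iMNs and 1351 in i3Ns, a log2 ratio of -0.54.

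RBFOX2 (chromosome 22, 35738736 to 36028824), the widely expressed form, was at 29495 in iMNs and 31652 in i3Ns. Per length, RBFOX2 held 66.7% of the family in iMNs and 90.1% in i3Ns, while the share of RBFOX1 was 23.5% and 1.13%. These shares use the positioned identifier of RBFOX2 alone. With the median coding length, RBFOX1 held 8.34% and 0.331%. A 2nd RBFOX2 identifier, ENSG00000277564, has no position in the annotation of the primary assembly, as is the case for copies of genes on alternate sequences. Its mean was 121 in iMNs and 14973 in i3Ns, a 119-fold difference, and 10 genes including this one were at least as far above iMNs. The assignment of reads between such copies is uncertain. Summed over both identifiers, RBFOX2 was at 29616 and 46625, a log2 ratio of 0.60, so that its place within 2-fold holds, while the sum differs more than the positioned identifier alone, whose log2 ratio was 0.05.

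The NOVA proteins, KH-domain proteins first known as targets of a neurological autoimmune disease, were at nearly equal levels. NOVA1 was at a mean normalized count of 11970 in iMNs and 13086 in i3Ns, and NOVA2 at 16443 and 16410. Their log2 ratios were 0.07 and -0.06.

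The CELF family regulate splicing and mRNA stability through GU-rich motifs, and CELF3 to CELF6 are the forms enriched in brain. CELF6 (chromosome 15, 72284727 to 72320157) was at 1926 in iMNs and 619 in i3Ns, 3.23-fold higher in iMNs, and 7.28% of genes were at least as far on that side. It shares 3212 exonic bases on the same strand with the gene AC009690.1. Summed with that gene, it was at 2470 and 1037, and the difference was 2.48-fold, still past 2-fold.

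The other brain-enriched forms were closer between the neurons. CELF3 was at 16074 in iMNs and 11455 in i3Ns, a log2 ratio of -0.55. CELF4 was at 8461 and 8456, and CELF5 at 8997 and 8222, with log2 ratios of -0.06 and -0.19. Of the broadly expressed forms, CELF1 was at 8038 and 12956 and CELF2 at 3574 and 6616, with log2 ratios of 0.63 and 0.83. Of all genes, 48.6% had a lower share in i3Ns, and with no spread between libraries a ratio as near 0 as that of CELF4 cannot be given a side. Per length, CELF5 held 40.3% and 39.1% of the family, but 23.1% and 22.2% when the longest transcript was used, and 11.8% and 9.87% with the median coding length, where CELF1 led at 29.6% and 43.5%.

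The MBNL proteins, which promote adult splicing patterns and are sequestered by expanded repeats in myotonic dystrophy, were the least abundant family per length. MBNL2 (chromosome 13, 97221434 to 97394120) was at a mean normalized count of 1480 in iMNs and 735 in i3Ns, 2.09-fold higher in iMNs and just past the 2-fold line, and 13.3% of genes were at least as far on that side. MBNL1 (chromosome 3, 152243828 to 152465780) was at 968 and 1379, a log2 ratio of 0.45. The order of the pair was therefore opposite, with MBNL2 at 64.4% of their level in iMNs and MBNL1 at 61.2% in i3Ns, and it was opposite with each of the 3 transcript lengths used. MBNL3 was listed for i3Ns only, at 53.6.

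**Figure D3:**
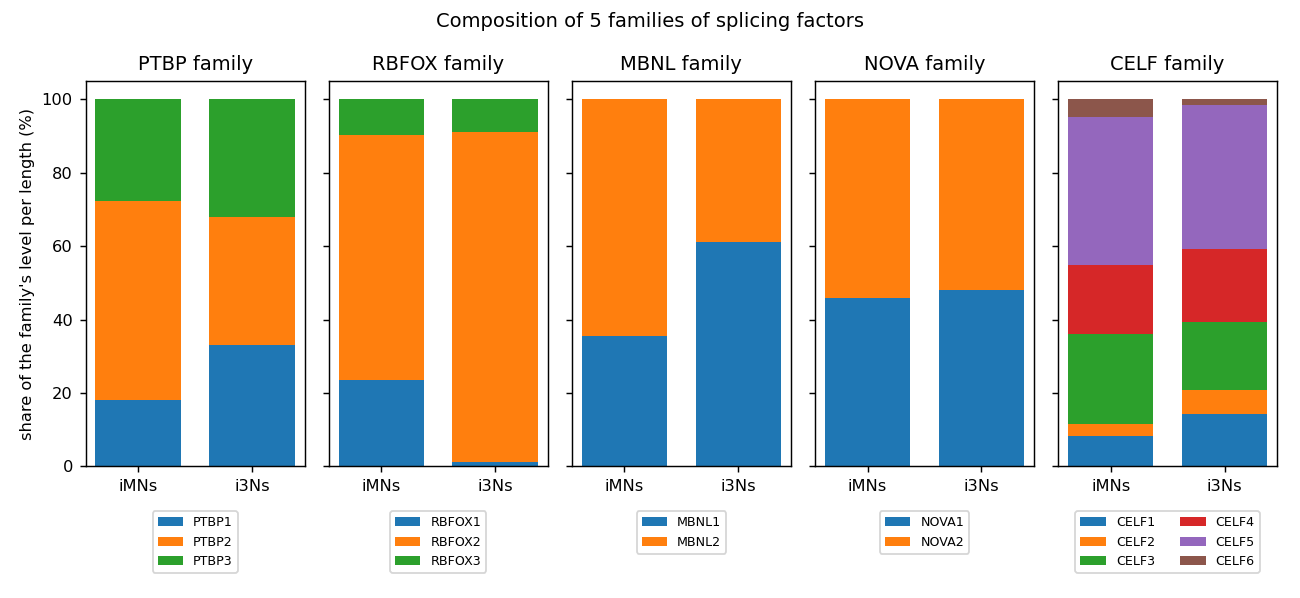
Share of each member in the summed level per transcript length of its family, in percent, for the PTBP, RBFOX, MBNL, NOVA and CELF families in iMNs and i3Ns. Bars are stacked to 100% and colours name the members. PTBP1 held 18.2% of its family in iMNs and 33.1% in i3Ns, RBFOX1 23.5% and 1.13%, and MBNL1 35.6% and 61.2%, with the MANE Select length. The shares depend on the length, and with the median coding length RBFOX1 held 8.34% and 0.331%.

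The hnRNP genes moved within a narrow band. Leaving out HNRNPA1L2, 17 of 20 had a higher share in i3Ns, against 51.4% of all genes. The median log2 ratio was 0.32, with a range from -0.10 to 0.76. Of the 20, 0 reached 2-fold, where 75.6% of all genes were within 2-fold. These genes and all genes were not matched for level. Per length, 14 of the 20 in iMNs and 18 in i3Ns were in the top 10% of genes.

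Among the A/B and D proteins, which package nascent RNA and compete with SR proteins at splice sites, HNRNPA1 (chromosome 12, 54280193 to 54287088) was at a mean normalized count of 19795 in iMNs and 27161 in i3Ns, and HNRNPA2B1 at 11148 and 16272. Their log2 ratios were 0.40 and 0.49. HNRNPAB was at 6499 and 8555, and HNRNPA0 at 11959 and 14660, with log2 ratios of 0.34 and 0.24. HNRNPD, or AUF1, which binds AU-rich elements of unstable mRNAs, was at 4306 and 5475, a log2 ratio of 0.29, and its relative HNRNPDL was at 10072 and 10724, a log2 ratio of 0.03. HNRNPA3, at 11745 and 11429, had the lowest log2 ratio of the 20, -0.10, which with no spread between libraries cannot be given a side.

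HNRNPA1L2, an intronless near copy of HNRNPA1, was listed at 535 in iMNs and 687 in i3Ns. The division of reads between these copies is uncertain, but the sum of both, 20331 and 27848, had the same log2 ratio of 0.40 as HNRNPA1. The 10 pseudogenes of HNRNPA1 left out by the rule summed to 210.1 and 267, which is small beside HNRNPA1.

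HNRNPC, which binds uridine tracts and keeps cryptic exons out of mRNA, was equal in both neurons, with 13218 in iMNs, 13761 in i3Ns and a log2 ratio of 0.00. In the H/F group, which binds runs of guanine, HNRNPH1 (chromosome 5, 179614178 to 179634784) had the highest log2 ratio of the hnRNPs, 0.76 or 1.70-fold, with 7273 in iMNs and 12827 in i3Ns. HNRNPF was close to it, at 3299 and 5639, a log2 ratio of 0.72. HNRNPH3 was at 4915 and 6290, a log2 ratio of 0.30. HNRNPH2, a close relative of HNRNPH1 on chromosome X, was at 4733 and 4652, a log2 ratio of -0.08. HNRNPH1 thus held 37.4% of the H/F level per length in iMNs and 45.4% in i3Ns, and HNRNPH2 23.8% and 16.1%. With the longest transcript HNRNPH1 held 21.7% and 27.9%, and HNRNPH2 led the group in iMNs at 34.2%.

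HNRNPK, a KH-domain protein of cytosine-rich RNA, was at 14212 in iMNs and 19926 in i3Ns, a log2 ratio of 0.43. HNRNPL, which binds CA repeats, was at 8175 and 8185, a log2 ratio of -0.05, and its paralog HNRNPLL at 1977 and 2423, a log2 ratio of 0.24. In the last group, HNRNPU, a nuclear matrix protein, was at 22103 and 31051, a log2 ratio of 0.43. HNRNPUL2 was at 6966 and 12073, a log2 ratio of 0.74, and HNRNPUL1 at 8162 and 12279, a log2 ratio of 0.53. HNRNPM, which binds GU-rich sites, was at 4333 and 6784, a log2 ratio of 0.59. HNRNPR, known as a partner of SMN in motor axons, was at 8326 and 10670, a log2 ratio of 0.30. All 5 genes of this group lay above the all-gene median ratio of 0.02.

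The SR genes covered a similar band, with a median log2 ratio of 0.24 and a range from -0.04 to 0.72. A higher share in i3Ns was found for 10 of 12, against 51.4% of all genes. Again 0 of the 12 reached 2-fold, where 75.6% of all genes were within 2-fold, without matching for level. Per length they were less abundant than the hnRNPs, with medians of 70.7 ppm in iMNs and 92.5 ppm in i3Ns against 149.6 and 194 ppm, and 2 of 12 in iMNs and 3 of 12 in i3Ns lay in the top 10% of genes.

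SRSF5 and SRSF9 were the most abundant SR genes with the MANE Select length, at 203 and 196 ppm in iMNs and 252 and 237 ppm in i3Ns. With the median coding length SRSF6 stood above SRSF9, at 125 against 117 ppm in iMNs and 184 against 137 ppm in i3Ns. SRSF5 was at a mean normalized count of 4233 in iMNs and 5252 in i3Ns, a log2 ratio of 0.26, and SRSF9 at 3150 and 3809, a log2 ratio of 0.22. SRSF10, which acts as a general repressor when dephosphorylated, had the highest log2 ratio of the group, 0.72 or 1.65-fold, with 2177 in iMNs and 3738 in i3Ns.

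SRSF2, a core component of nuclear speckles, was at 2139 in iMNs and 3341 in i3Ns, a log2 ratio of 0.59. SRSF6 was at 3645 and 5484, and SRSF11, which cooperates with SRRM4 at neuronal microexons, at 3524 and 5219, with log2 ratios of 0.53 and 0.51. SRSF1, the founding SR protein, was at 4212 and 6152, a log2 ratio of 0.49. These genes with SRSF10 form the upper part of the SR range. The lower part held SRSF3 and SRSF7, which also serve as adaptors of mRNA export. SRSF3 was at 5727 and 6007, and SRSF7 at 2541 and 2576, with log2 ratios of 0.01 and -0.04. SRSF4 was at 2804 and 3043, SRSF8, an intronless relative of SRSF2, at 3380 and 3714, and SRSF12 at 1224 and 1264, with log2 ratios of 0.06, 0.08 and -0.01.

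The SR-like regulators TRA2A and TRA2B were at 1980 and 4487 in iMNs and at 2816 and 5391 in i3Ns. Their log2 ratios were 0.45 and 0.21. The members whose annotated NMD exons are printed above, TRA2A, TRA2B, SRSF3, SRSF4, SRSF6 and SRSF7, had log2 ratios from -0.04 to 0.53.

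**Figure D4:**
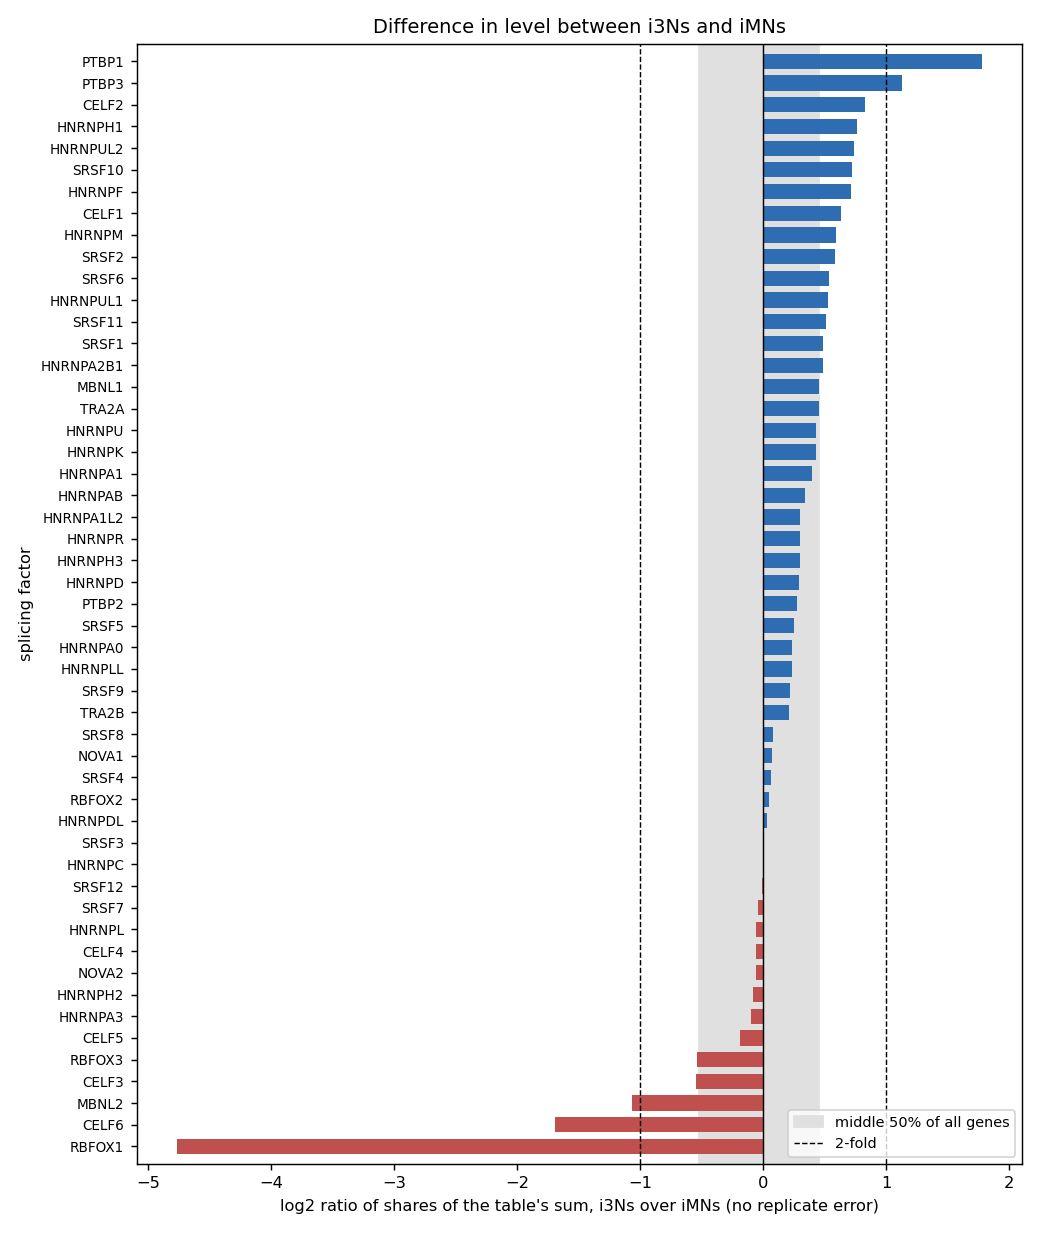
Log2 ratio of shares, i3Ns over iMNs, of the 51 positioned splicing factors in order of size, from the authors' means over 6 libraries of each neuron type, with no replicate error. Blue bars are higher in i3Ns and red bars higher in iMNs, the grey band holds the middle 50% of all genes, and dashed lines mark 2-fold. Only PTBP1 and PTBP3 pass the right line, and only MBNL2, CELF6 and RBFOX1 the left.

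Other regulators of splicing outside the named families were read from the same tables. Of 45 such genes, ESRP2 was listed for i3Ns only and could not be compared, and MATR3 entered under 2 identifiers. Of the list, 1 was at least 2-fold higher in i3Ns, ELAVL4, a neuronal Hu protein, at 7894 in iMNs and 17125 in i3Ns. At least 2-fold higher in iMNs were 4: KHDRBS3 at 5480 and 1672, RBM24 at 313 and 71.1, and, at low values, RBM47 at 18.7 and 3.84 and ESRP1 at 18.1 and 2.48. These counts stand beside 10.2% and 14.2% of all genes and are no result about the list. The median log2 ratio of the list was 0.33, close to that of the splicing factors. Among 8 kinases that phosphorylate SR proteins, SRPK3 alone differed by 2-fold or more, at 10.4 in iMNs and 1.78 in i3Ns, and the median log2 ratio was 0.19. RBM47, ESRP1 and SRPK3 passed the filter on low values only through iMNs, so that their direction follows from the filter. SRPK1 and CLK1 were at 5783 and 1496 in iMNs and at 6261 and 2405 in i3Ns.

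Exons shared with another gene limit some of these values. Of the members, 14 share exonic bases with another listed protein-coding gene, 5 of them on the same strand. The strand setting of the counting is not given in the sources used here, so reads of opposite-strand partners may be mixed too. The longest same-strand overlaps after that of CELF6 were those of HNRNPUL2 with HNRNPUL2-BSCL2, at 2391 bases, and of SRSF1 with AC015813.2, at 1890 bases. Summed with its partner, HNRNPUL2 had a log2 ratio of 0.66. On the opposite strand, HNRNPA3 shares 3509 bases with NFE2L2 and HNRNPU 3502 bases with COX20, at means of 1123 and 1850 for these partners in iMNs and of 1185 and 1843 in i3Ns. SRSF9 shares 1725 bases with GATC, which was at 2773 in iMNs and 1302 in i3Ns, against 3150 and 3809 for SRSF9. The part of such partners in the members' values was not tested.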

How the data were processed

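Per the labels and the study's methods, reads from rRNA-depleted total RNA were trimmed with fastp and quantified with Salmon, and the authors compared SMN-KD with SCR with DESeq2 in each neuron type. The submitters' processing notes also name STAR and hg38. Versions, annotation and strand setting are not given in the sources used here. The 2 deposited tables hold, per gene, a mean signal, which is the count estimated by Salmon, divided by size factors and averaged by the authors over 6 libraries, and the authors' fold changes, standard errors and p-values. Those comparison columns were not used.

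The means were divided by their table's sum. For levels per length they were divided by the MANE Select transcript length of GENCODE release 44 (GRCh38) and scaled to sum to 1000000. In iMNs 693 genes and in i3Ns 878 genes had no position there. Ratios used genes with a mean of at least 10 in either table, and members are named in full. The rule's pseudogene clause was applied to HNRNP and SRSF names, which dropped 18, and PTBP1 to PTBP3 were kept. Python 3.11.15 with pandas 2.3.3 was used. The calculation of the ratios was checked on simulated data with planted folds and little spread between libraries. That check does not bear on differences in cell line, protocol or the assignment of reads between copies. The members and gene lists were chosen with earlier results of these data known. Alternatives were other scales, folds, filters and lengths.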

Additional observations from a re-analysis of the deposited data

How the results depend on the processing

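No paired analysis was possible because the values used are the authors' means over all 6 libraries of a neuron type, so neither a fit with the replicate number as a block nor leaving out a replicate could be run. With a fold of 1.5 in place of 2, 11 members were higher in i3Ns in place of 3, and 3 were higher in iMNs, against 19.9% and 22.8% of all genes. With a fold of 3, the counts were 2 and 2, against 5.01% and 8.05%. The median log2 ratio of the members was 0.27 with median-of-ratios scaling and 0.28 without the 100 most abundant genes, where the all-gene medians were 0.01 and 0.02. Under median-of-ratios scaling 2 members changed sign, SRSF3 and HNRNPC, whose log2 ratio was at most 0.01 in size. None did so without the 100 most abundant genes. Other filters, none or a mean of at least 100, left both counts at 3. They could not change them, because every member of both tables had a mean above 100 in at least 1 table. Summing identifiers of a symbol gave 2 and 3. With the longest transcript and with the median coding length, 19 and 18 members were in the top 10% in iMNs and 29 and 25 in i3Ns. The leading member of a family was the same in 12 and 14 of 22 cases, so levels between members rest on the length used. Applying the pseudogene clause to every name left 49 identifiers. The percentiles among genes in both tables and the sum of CELF6 with AC009690.1 were chosen after seeing the data. Single-library depth and replicate spread are unknown.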
